A study of Mus musculus with 6 samples.

Results

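The genes described here encode 10 plasma proteins that the liver secretes and that are known to respond to inflammation: the orosomucoids Orm1, Orm2 and Orm3, lipocalin 2 (Lcn2), haptoglobin (Hp), hemopexin (Hpx), ceruloplasmin (Cp), serum amyloid P component (Apcs) and the inter-alpha-inhibitor heavy chains Itih3 and Itih4. They were chosen by symbol and matched by Ensembl gene ID, and all 10 were found among the 37991 gene IDs of the count files. RNA sequencing counts came from 6 livers of FVB mice aged 84 days. Of these livers, 3 were Ing5 +/+ (WT) and 3 were Ing5 MommeD48/+ (Het), that is, heterozygous for a mutant allele of Ing5, a gene of the inhibitor of growth family. The labels give neither the kind of mutation nor whether a liver pools animals. The allele came from a screen for mutations that alter the silencing of a transgene, and both groups are otherwise given with the same strain, age and tissue. Nothing in the labels says that livers of 1 genotype came from separate animals, so the spread that the p-values rest on may be partly technical. Per-liver values are listed throughout in the order of replicates 1 to 3.

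The acute-phase response is the change in plasma protein synthesis by which the liver reacts to injury or infection. Interleukin 6 acts on hepatocytes through its receptor, the shared chain gp130 and the transcription factor STAT3, while interleukin 1 acts through NF-kappa-B and C/EBP factors. Products of the genes described here bind small molecules, free haemoglobin, haem, iron-loaded siderophores, copper or amyloid. The inter-alpha-inhibitor heavy chain encoded by Itih3 stabilises the matrix polymer hyaluronan. In the mouse, serum amyloid P component is a principal acute-phase reactant.

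Total counts per library lay between 19840541 and 22041117, and the 10 genes together took 0.733% to 2.31% of them. Levels are given as CPM, normalised counts scaled by library size. The floor, taken as 3 counts, was 0.136 to 0.151 CPM and covers counting error only. Albumin (Alb), which defines hepatocytes, had 58698 to 78783 CPM. Ing5 itself had 182, 228 and 191 counts in WT and 193, 217 and 180 counts in Het replicates 1 to 3, a log2 fold change of -0.05 (SE 0.11), so the level of its transcript does not separate the genotypes. No library repeated another: pairs differed by a chi-square of 9.33 to 72.1 per degree of freedom.

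Promoter sequences are shown for 5 of the genes, Orm2, Orm3 and Lcn2 because they varied most between livers, and Apcs and Itih4 because theirs were the windows that held a STAT motif. RefSeq windows of the GRCm38.p6 build, 250 bases before to 50 bases after the transcript start, were available for 8 of the 10 genes (not Orm1 and Hp). The submitters' processing notes name another build, mm9, so these coordinates serve only to locate the sequences. The 250 bases before the start are printed 5′ to 3′, with matches to the C/EBP motif TTNNGNAA or the STAT motif TTCNNNGAA, on either strand, in capitals.
Orm2, chr4:63362199-63362448, plus strand: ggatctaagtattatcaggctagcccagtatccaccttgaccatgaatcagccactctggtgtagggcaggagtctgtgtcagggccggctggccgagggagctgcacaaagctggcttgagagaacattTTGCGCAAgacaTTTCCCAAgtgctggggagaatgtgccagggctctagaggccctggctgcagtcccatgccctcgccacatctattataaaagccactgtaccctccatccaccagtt
Orm3, chr4:63355908-63356157, plus strand: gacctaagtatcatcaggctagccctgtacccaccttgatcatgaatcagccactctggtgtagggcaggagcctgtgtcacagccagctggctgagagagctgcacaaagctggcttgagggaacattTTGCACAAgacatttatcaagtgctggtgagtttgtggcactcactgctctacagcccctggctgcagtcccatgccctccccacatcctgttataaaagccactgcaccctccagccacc
Lcn2, chr2:32387740-32387989, minus strand: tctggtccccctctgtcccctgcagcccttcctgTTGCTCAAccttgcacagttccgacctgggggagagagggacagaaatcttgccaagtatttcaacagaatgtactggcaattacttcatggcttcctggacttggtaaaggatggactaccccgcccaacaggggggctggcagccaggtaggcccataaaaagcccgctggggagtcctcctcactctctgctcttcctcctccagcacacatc
Apcs, chr1:172895055-172895304, minus strand: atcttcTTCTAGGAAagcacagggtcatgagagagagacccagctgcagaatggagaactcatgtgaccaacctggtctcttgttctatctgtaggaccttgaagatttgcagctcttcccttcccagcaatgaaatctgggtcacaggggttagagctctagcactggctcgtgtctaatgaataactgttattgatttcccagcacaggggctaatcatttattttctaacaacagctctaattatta
Itih4, chr14:30886226-30886475, plus strand: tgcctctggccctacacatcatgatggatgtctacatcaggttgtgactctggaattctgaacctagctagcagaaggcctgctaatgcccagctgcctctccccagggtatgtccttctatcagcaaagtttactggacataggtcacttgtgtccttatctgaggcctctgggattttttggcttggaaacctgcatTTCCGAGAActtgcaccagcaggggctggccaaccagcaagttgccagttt
The C/EBP motif was found in 5 of the 8 genes with a window (Orm2, Orm3, Lcn2, Hpx and Cp) and in 40.7% of 32841 mouse promoter windows of the same length. The STAT motif was found in 2 of 8 (Apcs and Itih4) and in 8.3% of all windows. The kappa-B motif was found in 0 of 8 and in 8.46% of all windows. A gene with several windows counted once if any held the motif, and no matches to different motifs overlapped. The Orm2 and Orm3 windows were identical at 263 of 295 aligned bases (89.2%). A C/EBP match began 120 bases before the start in Orm2 and 121 bases before it in Orm3, and Orm2 had another match 108 bases before its start. In Lcn2 the match began 216 bases before the start, in Apcs 244 bases and in Itih4 51 bases before it. These matches describe letters only and are not shown to be bound.

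The same livers were high in each of these genes, and they were of both genotypes. WT replicate 2 had the highest value of the 6 livers in 10 of 10 genes, and WT replicate 1 and Het replicate 1 came next in 10 of 10, in either order. Among all 12631 genes tested, WT replicate 2 was highest in 17.6%, and this order of the first 3 livers was found in 4.28%. WT replicate 1 was second in 6 genes (the 3 orosomucoids, Hpx, Cp and Itih4) and Het replicate 1 in 4 (Lcn2, Hp, Apcs and Itih3). The lowest liver was Het replicate 3 in 5 genes, WT replicate 3 in 4 and Het replicate 2 in 1 (Apcs). Values of different genes share each library, so this common order is a description of 6 livers. Summed over the 10 genes, the level was 14128, 23145 and 7474 CPM in the WT livers against 14073, 8989 and 7929 CPM in the Het livers. A Het liver thus lay at the level of WT replicate 1, and a WT liver lay below every Het liver.

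**Figure D1:**
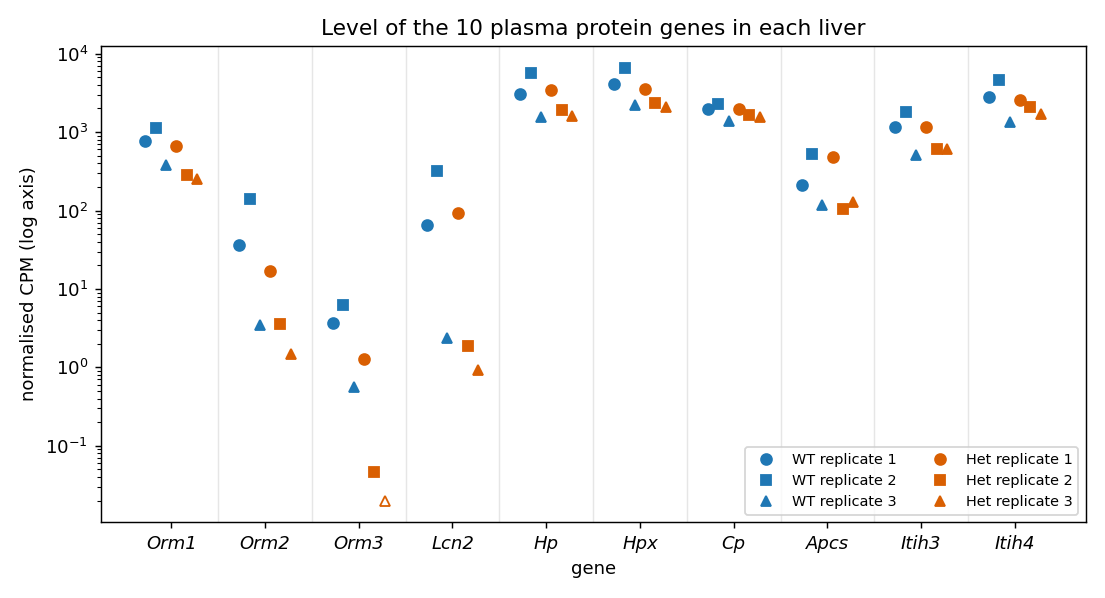
Normalised CPM (log axis) of each gene in each of the 6 livers, blue for WT and orange for Het, with a symbol for each replicate number; the open triangle marks a count of 0 and is placed at the foot of the axis. WT replicate 2 is the highest point in all 10 genes, and blue and orange points interleave in each of them.

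Het livers were compared with WT livers for an effect of the heterozygous mutation on transcript levels. None of the 10 genes passed the test. With edgeR (quasi-likelihood, p-values adjusted over the 12631 genes tested, threshold 0.05) 0 of 10 were called, against 0% of all genes. At an unadjusted p under 0.05 it called 0 of 10, against 4.33% of all genes. DESeq2 called 0 of 10, against 0.103% of all genes, and limma-voom 0 of 10, against 0%. The other settings with any call over all genes also called 0 of 10: these were no low-count filter (0.00524% of all genes), leaving out WT replicate 3 (0.133%) and leaving out Het replicate 1 (0.0783%). The adjusted p was 0.9998 for each of the 10 genes, and unadjusted p-values ran from 0.0858 (Orm3) to 0.796 (Apcs). The fitted value was lower in Het livers for 10 of 10 genes, against 49.7% of all genes tested, with a median log2 fold change of -0.62 against 0.00088 over all genes. All 10 genes were measured in the same 6 libraries, so these directions are not independent. In 0 of 10 genes were the 3 Het values separate from the 3 WT values, against 8.99% of all genes. Without WT replicate 2 the fitted value was lower in 6 of 10 genes, against 49% of all genes, and the median was -0.07. Without WT replicate 3 the median was -0.96, and without Het replicate 1 it was -1.12. The latter median counts a fitted value of Orm3 that is not given by itself, because its Het counts left were 1 and 0.

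**Figure D2:**
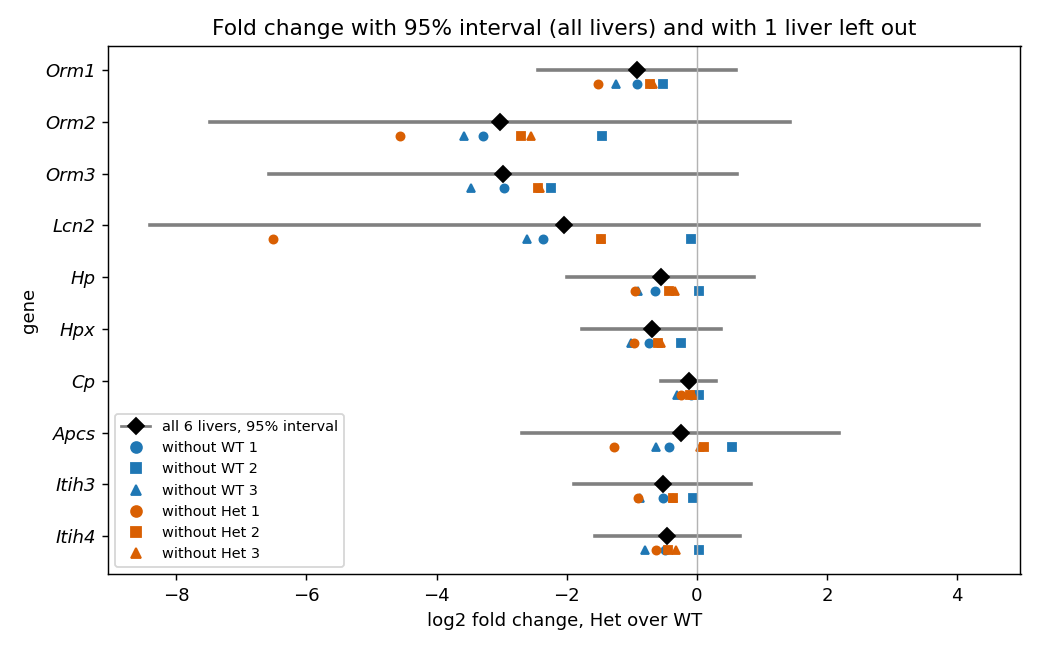
Log2 fold change of Het over WT for each gene with all 6 livers (black diamonds, grey bars are 95% intervals) and with each liver left out in turn (coloured symbols; no value for Orm3 without Het replicate 1). Every interval includes 0, and the blue squares, without WT replicate 2, are the rightmost in each gene, above 0 for Hp, Cp, Apcs and Itih4.

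The orosomucoids, also called alpha-1-acid glycoproteins, are lipocalins that carry drugs, lipids and other small molecules in plasma, and the 3 mouse genes lie next to each other on chromosome 4. Orm1 (ENSMUSG00000039196) had 774, 1132 and 378 CPM in the WT livers against 671, 281 and 253 CPM in the Het livers. The 2 lowest values of Orm1 were both in Het livers, but Het replicate 1 lay above WT replicate 3. Its fold change was 0.527 of WT (95% interval 0.184 to 1.51; log2 -0.92, SE 0.59), and the log2 value ran from -1.51 without Het replicate 1 to -0.52 without WT replicate 2. Orm2 (ENSMUSG00000061540) had 36.7, 139 and 3.50 CPM in the WT livers against 17.0, 3.59 and 1.46 CPM in the Het livers. The WT livers alone spanned 5.28 of the 6.48 log2 units over all livers, with WT replicate 3 below Het replicate 2. Orm2 had a log2 fold change of -3.03 with an SE of 1.64 (95% interval -7.49 to 1.43), and it ran from -4.56 without Het replicate 1 to -1.46 without WT replicate 2. Orm3 (ENSMUSG00000028359) had 76, 139 and 11 counts in WT and 27, 1 and 0 counts in Het replicates 1 to 3, or 3.66, 6.31 and 0.565 CPM against 1.29, 0.046 and 0 CPM. Only Het replicate 1 lay among the WT values, and the other Het livers were under the floor of 3 counts. Orm3 had a fitted log2 difference of -2.98 (SE 1.38, 95% interval -6.58 to 0.62), fitted to counts that include a 0. It was -2.25 without WT replicate 2, -3.48 without WT replicate 3 and -4.26 with limma-voom.

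The composition of the orosomucoid transcripts differed between livers as well as their sum. Orm1 made up most of the counts in every liver, from 88.6% in WT replicate 2 to 99.4% in Het replicate 3. The share of Orm2 was 4.51% (95% Wilson interval 4.21% to 4.83%), 10.9% (10.5% to 11.3%) and 0.916% (0.723% to 1.16%) in WT replicates 1 to 3. In Het replicates 1 to 3 it was 2.46% (2.22% to 2.73%), 1.26% (1.01% to 1.57%) and 0.575% (0.403% to 0.819%). The livers with the 3 highest Orm1 levels also had the 3 highest Orm2 shares, in the same order and with intervals that did not overlap. Orm3 made up at most 0.494% (0.418% to 0.583%), in WT replicate 2. In Het replicate 3 it had 0 of 5222 counts, which allows a share of up to 0.0574% by the floor of 3 counts, or up to 0.0735% by the Wilson interval drawn for that liver. These intervals cover counting error only. The 3 transcripts are alike, with 91% identity between Orm1 and Orm2, 86.5% between Orm1 and Orm3 and 88.5% between Orm2 and Orm3 in the GENCODE M21 annotation. Of the 726 windows of 50 bases in the Orm1 transcript, 20.4% occur unchanged in Orm2 and 2.2% in Orm3. The values of Orm2 and Orm3 are therefore uncertain where reads could be split between copies.

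**Figure D3:**
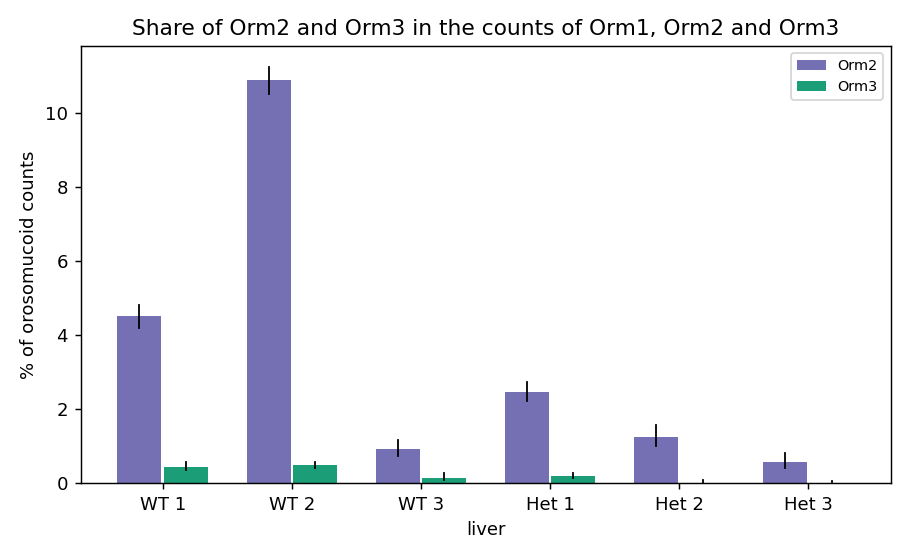
Share of Orm2 and Orm3 in the summed counts of the 3 orosomucoid genes (percent, linear axis from 0) in each liver, with 95% Wilson intervals as black lines. The Orm2 share is 10.9% in WT replicate 2 and 0.575% in Het replicate 3, and Orm3 stays under 0.5% in every liver.

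Lcn2 (ENSMUSG00000026822) encodes lipocalin 2, which binds bacterial siderophores and is made by hepatocytes in inflammation and stored in neutrophil granules. It had 64.6, 323 and 2.36 CPM in the WT livers against 92.5, 1.89 and 0.927 CPM in the Het livers. No other gene of the 10 varied as much: the highest WT liver had 137 times the level of the lowest, and the highest Het liver 99.8 times the level of the lowest. Within each genotype high and low livers were more than an order of magnitude apart, so the fold change had a wide interval. It was -2.04 on the log2 scale (SE 2.34, 95% interval -8.41 to 4.34). Without WT replicate 2 it was -0.08 and without Het replicate 1 it was -6.52, and with limma-voom and all livers it was -2.76. Neutrophil markers, of which 1 of 10 was tested (S100a9), were near the floor in the same libraries. The 10 markers summed to 2.36, 2.41 and 0.822 CPM in the WT livers against 1.63, 0.920 and 1.46 CPM in the Het livers. The granule protein genes Ngp, Camp, Ltf and Mpo had 0 to 4 counts per library. S100a9 and S100a8, the most abundant markers, had 5 to 20 and 2 to 24 counts. The neutrophil sum was highest in WT replicates 2 and 1 and Het replicate 1, as Lcn2 was, but it spanned 0.822 to 2.41 CPM while Lcn2 spanned 0.927 to 323 CPM. The part of neutrophils in the Lcn2 values was not tested.

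Hp and Hpx encode the plasma proteins that capture free haemoglobin and free haem. Hp (ENSMUSG00000031722) had 3020, 5732 and 1544 CPM in the WT livers against 3478, 1938 and 1611 CPM in the Het livers. The lowest liver was a WT liver and the second highest a Het liver. The log2 fold change of Hp was -0.55 (SE 0.56, 95% interval -1.99 to 0.89), and it was 0.04 without WT replicate 2. Hpx (ENSMUSG00000030895) had 4098, 6643 and 2206 CPM in the WT livers against 3594, 2326 and 2085 CPM in the Het livers. WT replicate 3 lay between the 2 lowest Het livers. The log2 fold change of Hpx was -0.69 (SE 0.43, 95% interval -1.76 to 0.37), and it ran from -1.01 without WT replicate 3 to -0.24 without WT replicate 2. The ratio of Hpx to Hp counts stayed between 1.03 (Het replicate 1) and 1.43 (WT replicate 3), a narrow range beside the 3.71-fold range of Hp itself. Erythroid transcripts, 5 of 9 tested and 5 with lower values in Het livers, summed to 213, 287 and 179 CPM in the WT livers against 165, 106 and 220 CPM in the Het livers. Their highest liver was WT replicate 2 as for Hp and Hpx, but Het replicate 3, low in both, came second. Their part in the values of Hp and Hpx was not tested.

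Cp (ENSMUSG00000003617) encodes the copper ferroxidase ceruloplasmin and varied least of the 10 genes. It had 1974, 2283 and 1371 CPM in the WT livers against 1971, 1650 and 1537 CPM in the Het livers. WT replicate 1 and Het replicate 1 were almost equal, and the other Het livers lay inside the WT range. Cp in Het livers was 0.916 times its WT level, with a 95% interval of 0.685 to 1.23 that lies within a 1.5-fold change either way (log2 -0.13, SE 0.19). Without WT replicate 2 the log2 value was 0.04. In the reference annotation exons of Cp overlap those of Hps3 on the opposite strand, and the strand setting of the counting is not given in the sources used here. Hps3 had 1245 counts over the 6 libraries together, beside 26671 to 50324 counts of Cp in each library, and the share of Cp reads that Hps3 gave was not tested.

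Apcs (ENSMUSG00000026542), the pentraxin that coats amyloid fibrils and microbial surfaces, had 209, 524 and 117 CPM in the WT livers against 480, 105 and 130 CPM in the Het livers. Here the highest Het liver came close to the highest WT liver, while the other Het livers lay at the level of WT replicate 3. Het over WT, the log2 fold change of Apcs was -0.25 (SE 0.91, 95% interval -2.69 to 2.19). Its sign turned when a single liver was left out, to 0.55 without WT replicate 2, 0.10 without Het replicate 2 and 0.05 without Het replicate 3, while without Het replicate 1 it was -1.27.

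Inter-alpha-inhibitor heavy chains are carried in plasma on bikunin and can be transferred to hyaluronan. ITIH4 lacks the site for this linkage and circulates alone. Itih3 (ENSMUSG00000006522) had 1158, 1792 and 508 CPM in the WT livers against 1175, 617 and 614 CPM in the Het livers. Itih4 (ENSMUSG00000021922) had 2789, 4571 and 1344 CPM in the WT livers against 2594, 2067 and 1697 CPM in the Het livers. In both genes WT replicate 3 was the lowest liver. The fitted log2 difference was -0.52 (SE 0.53, 95% interval -1.88 to 0.84) for Itih3, and -0.06 without WT replicate 2. For Itih4 it was -0.45 (SE 0.45, 95% interval -1.57 to 0.67), and 0.04 without WT replicate 2. The transcripts of Itih3 and Itih4 share 0 windows of 50 bases. In other genes of the family the livers lay closer together. Itih1, chosen after its values were seen, had 649, 696 and 562 CPM in the WT livers against 656, 646 and 650 CPM in the Het livers. Itih2 had 1122, 1071 and 1172 CPM in the WT livers against 1249, 1550 and 1418 CPM in the Het livers, a log2 fold change of 0.33 (SE 0.12) with an unadjusted p of 0.0221 that did not pass adjustment (edgeR, adjusted p = 0.9998). Itih2 was lowest in WT replicate 2, where Itih3 and Itih4 were highest. Ambp, which encodes the bikunin precursor, had 2083, 2312 and 1890 CPM in the WT livers against 2146, 1901 and 1733 CPM in the Het livers, with WT replicate 2 first and Het replicate 1 and WT replicate 1 next as in Itih3. Of the 5 listed partners in this family 4 were tested, 1 had a lower value in Het livers, and the median log2 fold change was 0.17.

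Per length of the longest coding transcript, Hpx and Hp were the most abundant of the 10, with 2879 ± 1485 and 2552 ± 1579 CPM per kilobase in WT livers (SD, n = 3). Orm1 (982 ± 487 CPM per kilobase) and Itih4 (822 ± 458) followed. Cp had 411 ± 102, Itih3 385 ± 215, Apcs 292 ± 220, Lcn2 142 ± 186, Orm2 77.1 ± 91.2 and Orm3 4.54 ± 3.72 CPM per kilobase in WT livers. The SDs of every pair of neighbours in this order overlapped. Within a liver the order was firmer: Hp exceeded Orm1, Itih4 exceeded Cp, Apcs exceeded Lcn2 and Orm2 exceeded Orm3 in 6 of 6 livers. Hpx exceeded Hp, Cp exceeded Itih3 and Itih3 exceeded Apcs in 5 of 6, Orm1 exceeded Itih4 in 4 of 6, and Lcn2 exceeded Orm2 in 3 of 6.

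The spread between livers of 1 genotype was wide for most of these genes. The 3 WT livers spanned at least 1 log2 unit in 9 of 10 genes, against 5.09% of all genes tested, and the 3 Het livers in 6 of 10, against 4.63%. Cp was the gene outside these counts in WT, and Cp, Hpx, Itih3 and Itih4 in Het livers. Over all genes the median span was 0.28 log2 units in WT and 0.24 in Het livers. The spans of Lcn2 were 7.04 and 6.50, of Orm2 5.28 and 3.45, of Orm3 3.28 and 3.86 and of Apcs 2.17 and 2.19 log2 units in WT and Het livers, respectively. The Het span of Orm3 runs from 27 counts to 0, so its value is set by the prior count of 2 in log2 CPM and is not a measured span. The spans of the remaining 6 genes lay between 0.74 and 1.89 in WT and between 0.36 and 1.40 in Het livers. The biological coefficient of variation fitted by edgeR was 1.69 for Lcn2, 1.42 for Orm3, 1.20 for Orm2 and 0.727 for Apcs, against a median of 0.114 over all genes. It was 0.192 for Cp, at the 89.1st percentile, while the other 9 genes lay at or above the 98.6th.

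**Figure D4:**
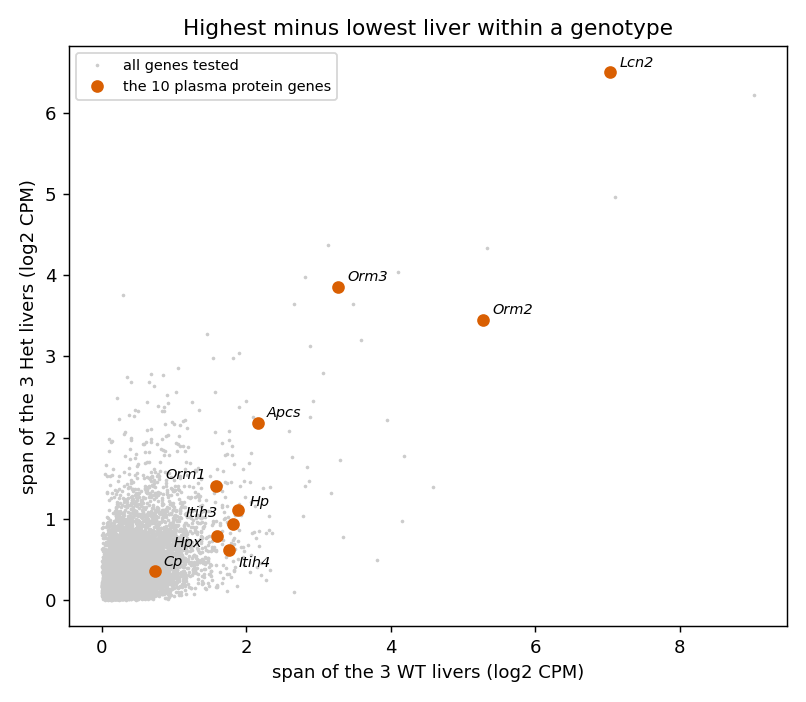
Highest minus lowest liver in log2 CPM within WT (horizontal axis) and within Het (vertical axis) for all 12631 genes tested (grey) and the 10 genes described here (orange). Lcn2, at 7.04 and 6.50, Orm2, Orm3 and Apcs lie apart from most genes, and Cp, at 0.74 and 0.36, lies among them. The Het value of Orm3 depends on the prior count of 2, since it includes a count of 0.

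Set side by side on a centred log2 scale, the genes kept much the same order of livers but differed in how far apart the livers lay. The median over the 10 genes deviated from the mean of the 6 livers by 0.38, 1.17 and -0.76 in WT and by 0.43, -0.68 and -0.68 in Het replicates 1 to 3. In WT replicate 2, Lcn2 stood 4.47 and Cp 0.37 log2 units above its own mean. The genes also differed in how Het replicate 1 compared with WT replicate 1. The deviation of Apcs was 1.20 in Het replicate 1 and 0.00065 in WT replicate 1, whereas that of Orm3, whose mean includes a count of 0, was 0.76 and 2.20 and that of Orm2 0.63 and 1.74.

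**Figure D5:**
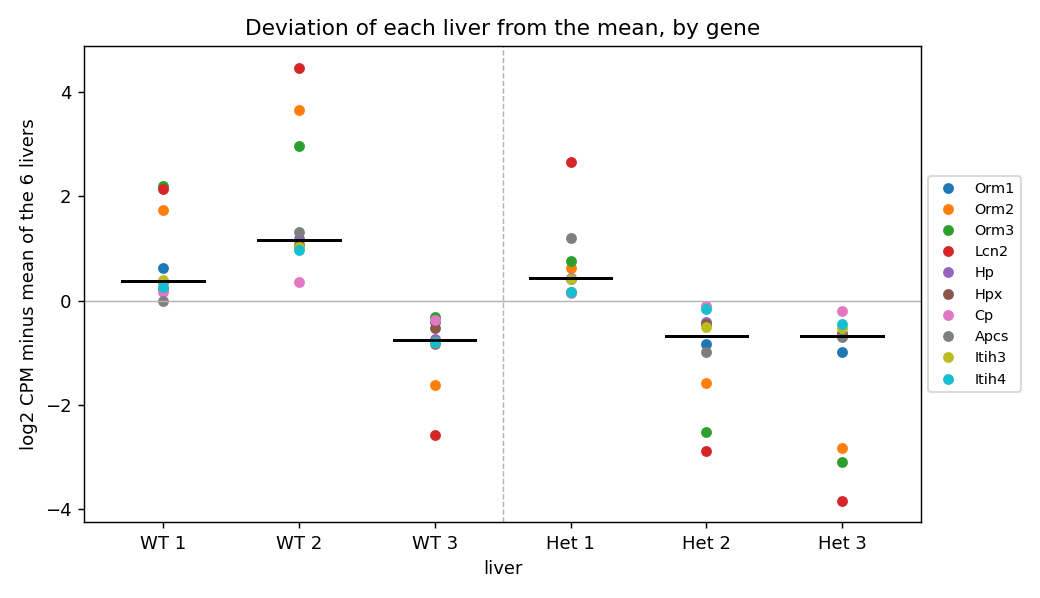
Log2 CPM of each gene minus its mean over the 6 livers, by liver, with the median of the 10 genes as a black bar; the dashed line parts WT from Het. The bars stand at 1.17 in WT replicate 2 and at -0.76 in WT replicate 3, and Lcn2 (red) lies outermost in WT replicate 2, WT replicate 3, Het replicate 1, Het replicate 2 and Het replicate 3.

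Genes elsewhere in the acute-phase response were described from lists taken whole, whatever their members' values. Over all genes tested, 4.33% had an unadjusted p under 0.05 (edgeR) and 49.7% were lower in Het livers by fitted value. These shares stand beside every list below. Of 21 other positive acute-phase genes, 0 passed in either direction (edgeR, adjusted p), 1 had an unadjusted p under 0.05 and 19 were lower in Het livers by fitted value, the median being -0.42 (log2). Their summed level was 27296, 40043 and 17305 CPM in the WT livers against 24160, 19984 and 18761 CPM in the Het livers, so that WT replicate 2 was again highest and WT replicate 3 lowest. The most abundant were C3, the central complement component, with 7467, 10472 and 5229 CPM in the WT livers against 7325, 6246 and 5715 CPM in the Het livers, and the fibrinogen chain gene Fgb. The serum amyloid gene Saa1, chosen after its values were seen, had 1381, 4300 and 31.3 CPM in the WT livers against 753, 44.8 and 24.0 CPM in the Het livers. Saa1 spanned 7.48 log2 units over all livers, beside 8.30 for Lcn2. The other serum amyloid genes of the list, Saa2, Saa3 and Saa4, spanned 9.33, 3.8 and 1.35 log2 units. The negative acute-phase genes are those whose products fall in inflammation. Of 12 tested, 0 passed and 6 were lower in Het livers by fitted value, the median being -0.01. Alb had 58698, 59017 and 73703 CPM in the WT livers against 78783, 63818 and 60098 CPM in the Het livers. Ahsg, the gene of fetuin A, had 6241 to 7291 CPM in WT and 6768 to 8117 CPM in Het livers.

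Of the listed genes of interleukin 6, interleukin 1 and glucocorticoid signalling upstream, 18 of 21 were tested and 0 passed. An unadjusted p under 0.05 (edgeR) was found for 2, against 4.33% of all genes. By fitted value 12 were lower in Het livers, against 49.7% of all genes, the median being -0.20 (log2). The most abundant were Lifr, the leukaemia inhibitory factor receptor gene, and Il1rap, the interleukin 1 receptor accessory protein gene. Lifr had 390, 308 and 406 CPM in the WT livers against 453, 673 and 579 CPM in the Het livers, so the groups were separate. They were separate in 3 of the 18 tested genes of this list, against 8.99% of all genes. The log2 fold change of Lifr was 0.63 (SE 0.16) with an unadjusted p of 0.00342, and it did not pass adjustment (edgeR, adjusted p = 0.9998). Il1rap had 205 to 234 CPM in WT and 220 to 250 CPM in Het livers. The following genes were chosen after their values were seen. Il6 had 0 counts in each of the 6 libraries. Stat3 had 127, 151 and 70.3 CPM in the WT livers against 84.5, 82.3 and 86.1 CPM in the Het livers, and Socs3, the feedback inhibitor of this pathway, 6.31, 11.5 and 4.52 CPM against 5.07, 5.93 and 4.20 CPM. In both WT replicate 2 was highest, but Het replicate 1 lay between the other Het livers, where it was the highest Het liver in the 10 plasma protein genes. Il6ra also had Het replicate 1 between the other Het livers. Il1r1 and Nfkbiz of the same list instead had the same 3 highest livers as the 10 genes, with Het replicate 1 the highest Het liver. Il1r1 had 122.3, 136.2 and 38.29 CPM in the WT livers against 81.02, 67.29 and 62.92 CPM in the Het livers. The genes of this list thus did not share 1 order of livers. Among 8 liver transcription factor genes 0 passed, 2 had an unadjusted p under 0.05 and 3 were lower in Het livers by fitted value, the median being 0.17. Hnf4a had 630, 666 and 457 CPM in the WT livers against 532, 607 and 563 CPM in the Het livers, and Cebpa 285, 314 and 378 CPM against 355, 362 and 364 CPM.

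Genes for receptors and partners of these plasma proteins were also measured. Of 10 listed 8 were tested, 0 passed, 0 had an unadjusted p under 0.05 and 3 were lower in Het livers by fitted value, the median being 0.09 (log2). Lrp1, the receptor that takes up haem bound to hemopexin, had 762, 951 and 572 CPM in the WT livers against 670, 651 and 693 CPM in the Het livers. Slc40a1, the iron exporter whose iron ceruloplasmin oxidises, had 323 to 351 CPM in WT and 334 to 393 CPM in Het livers. Cd163, the macrophage receptor for haptoglobin bound to haemoglobin, was chosen after its values were seen and had 9.68, 9.39 and 2.16 CPM in the WT livers against 5.55, 7.64 and 4.24 CPM in the Het livers.

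Apart from the neutrophil markers above, summed cell type markers gave other orders of the livers. Kupffer cell markers, 9 of 9 tested and 3 lower in Het livers, summed to 252, 243 and 137 CPM in the WT livers against 199, 271 and 155 CPM in the Het livers. Het replicate 2, among the 3 lowest livers in each of the 10 genes, was their highest, and WT replicate 3 was their lowest. Hepatocyte markers summed to 78988, 77976 and 91706 CPM in the WT livers against 97597, 82295 and 79940 CPM in the Het livers, mostly from Alb. Of these markers, Apob and F9, chosen after their values were seen, had the same 3 highest livers as the 10 genes. Apob had 8064, 9506 and 4996 CPM in the WT livers against 8415, 6742 and 7483 CPM in the Het livers. F9 had 343, 356 and 248 CPM against 340, 266 and 247 CPM. The other listed hepatocyte markers had other highest livers. Adipocyte markers, from cells that also express Hp, Lcn2 and Orm1, summed to 2.85 to 7.79 CPM, nearly all from Fabp4, and Adipoq, Plin1, Lep and Retn had 0 to 2 counts per library. Sinusoidal endothelial markers summed to 114 to 152 CPM in WT and 115 to 145 CPM in Het livers, stellate cell markers to 180 to 253 and 225 to 287 CPM, and cholangiocyte markers to 29.6 to 33.6 and 26.9 to 29.1 CPM. In bulk liver, fewer cells of a type and less RNA per cell cannot be told apart. The part of these cell types in the values of the 10 genes was not tested.

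Outside the 10 genes, the 7 genes named as most like the median profile of the 10 genes were taken from 11631 genes with a mean log2 CPM of at least 0. Likeness was the root-mean-square difference of centred log2 CPM over the 6 livers, which was 0.74 for the median gene. The closest were 2010003K11Rik (0.18), Lrg1 (0.20), Serpina3e-ps (0.21), Col15a1 (0.22), Tgm1 (0.24), Prg4 (0.26) and Cntnap1 (0.26). Lrg1, the gene of another secreted plasma glycoprotein, had 265, 573 and 147 CPM in the WT livers against 415, 136 and 136 CPM in the Het livers. Prg4, the gene of the lubricating proteoglycan lubricin, had 117, 179 and 52.3 CPM in the WT livers against 74.0, 54.7 and 41.7 CPM in the Het livers. As a pseudogene, Serpina3e-ps may share reads with related genes, which leaves its counts uncertain.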

How the data were processed

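The deposited values are raw counts per Ensembl gene ID from poly(A) RNA of 6 livers, made into Illumina TruSeq libraries per the labels' protocols. The submitters' processing notes name TopHat2 2.0.11, HTSeq 0.6.1, DESeq and mm9 without their roles, and counting strand and annotation release are not given in the sources used here. Symbols were matched by ID for 32919 of 37991 IDs, and no row lacked a gene ID. Genes were filtered with filterByExpr, which left 12631, scaled by TMM, and tested by quasi-likelihood (robust estimation) in edgeR 4.0.16 under R 4.3.3, genotype being the sole factor. Benjamini-Hochberg adjustment covered all tested genes (threshold 0.05), and the F statistic gave SE and 95% intervals. CPM values are TMM-normalised, log2 CPM used a prior count of 2, and lengths were of the longest coding GENCODE M21 transcript. The fit was tested on counts simulated with the spread typical of genes at each level, not each gene's own, so that test does not cover the most variable genes. The alternatives were DESeq2 1.42.0, limma-voom (limma 3.58.1), other scalings, filters and thresholds, a replicate block and each library left out. All 10 genes are named; of each list the 2 most abundant genes and any past the threshold, some lists as sums alone, and the 8 most similar genes, of which 1 is not reported here. The genes and lists were chosen with earlier results of these data known. A planned comparison of protein sequences was not run, and transcripts were compared instead.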

Additional observations from a re-analysis of the deposited data

How the results depend on the processing

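Under 14 alternatives 0 of the 10 genes passed an adjusted p of 0.05, and of their 139 recomputed fold changes 133 kept their sign. Over all of these alternatives their adjusted p-values ran from 0.377 to 1. The 6 reversed fold changes (log2) were Hp 0.03765, Cp 0.04004, Itih4 0.03649 and Apcs 0.5477 without WT replicate 2, and Apcs 0.1048 without Het replicate 2 and 0.04667 without Het replicate 3. Leaving out 1 library gave -0.9519 to 0.03765 for Hp, -0.3083 to 0.04004 for Cp, -1.271 to 0.5477 for Apcs and -0.7961 to 0.03649 for Itih4. The number of genes with lower values ranged from 6 to 10 and the median from -1.12 to -0.07 when 1 library was left out. Over all genes, 0 passed in the analysis reported here, 1 without a low-count filter, 13 with DESeq2 and 0 to 17 with a library left out (17 without WT replicate 3, 10 without Het replicate 1). The cause was not tested. Other scalings and filters, limma-voom and a threshold of 0.1 left the counts at 0, and no scaling moved the median of all genes by over 0.1. Orm3 is given no value of its own without Het replicate 1, since the Het counts left were 1 and 0. The median of -1.12 for that setting still counts its fitted value. The deviations of same-numbered livers had correlations of -0.02, -0.08 and 0.22. WT replicates 1, 2 and 3 were most like Het replicates 2, 1 and 3, respectively. With 3 livers per genotype, these values cannot show whether the numbers pair the samples. A replicate block gave 0 genes passed, 0 of the 10 genes, 10 of 10 lower and a median of -0.50. Depth limits Orm3 most, with 0 to 139 counts per library.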
